A study of Mus musculus with 17 samples.

Results

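The genes described here are 7 genes known for their expression in brown adipocytes, measured in the mouse diaphragm. They are Ucp1, Cidea, Elovl3, Dio2, Prdm16, Otop1 and Zic1, chosen by name from the 47643 gene symbols of the expression table. Of the 7 genes, 6 reached at least 1 TPM (a transcript level scaled for gene length and library depth) in at least 3 of the 17 samples and entered the tests across genes. Zic1 remained at or under 0.372 TPM in each mouse and was not tested across genes.

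RNA-seq was done on the diaphragm of 17 male C57BL/6J mice aged 4 months, in 4 groups. Control mice (n = 5) and mice with LLC tumors (n = 3) received mock injections, whereas Control + rFibcd1 (n = 5) and LLC + rFibcd1 mice (n = 4) received rFibcd1. LLC (Lewis Lung Carcinoma) cells had been placed under the skin of both flanks, and rFibcd1, a recombinant C-terminal part of mouse Fibcd1, was injected repeatedly into the peritoneal cavity in the last week of tumor growth, in PBS with BSA, which alone served as mock. Tumor-free mice were injected likewise. Each diaphragm was freed from tendons and only its muscle portion was used, so the samples were whole muscle pieces and not sorted cells.

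Brown adipocytes burn fuel to make heat. Noradrenaline released by sympathetic nerves acts on beta-adrenergic receptors of these cells and raises cyclic AMP, which turns on lipolysis and thermogenic genes, and the uncoupling protein encoded by Ucp1 then lets protons leak back across the inner mitochondrial membrane without making ATP. Adult myofibers do not make Ucp1, and muscle contains adipocytes mostly between fibers and along its surfaces and edges. In whole muscle, fewer adipocytes and less RNA per adipocyte cannot be told apart.

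The promoters of Ucp1 and Dio2 are shown because both genes are textbook targets of cyclic AMP signaling in brown fat, while their levels behaved differently in these diaphragms. RefSeq promoters on GRCm38.p6, running from 250 bases before to 50 bases after the start of transcription, were found for 5 of the 7 genes. The Ucp1 promoter is chr8:83290098-83290397 on the plus strand and the Dio2 promoter is chr12:90738989-90739288 on the minus strand. The latter lies wholly upstream of the Dio2 gene in GENCODE vM21, which ends at 90738438, so the 2 annotations place its start differently. Distances to the Dio2 start refer to RefSeq. Capitals mark 4 motifs that were searched on both strands: the cyclic AMP response element TGACGTCA, its shorter form TGACG, the nuclear receptor motif AGGTCA and the TATA box TATANA.
Ucp1: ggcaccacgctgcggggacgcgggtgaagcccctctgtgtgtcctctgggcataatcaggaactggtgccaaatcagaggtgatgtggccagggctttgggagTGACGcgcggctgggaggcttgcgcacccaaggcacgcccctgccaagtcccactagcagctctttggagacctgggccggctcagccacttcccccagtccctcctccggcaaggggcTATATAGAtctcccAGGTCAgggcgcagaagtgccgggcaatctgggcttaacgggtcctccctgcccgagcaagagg
Dio2: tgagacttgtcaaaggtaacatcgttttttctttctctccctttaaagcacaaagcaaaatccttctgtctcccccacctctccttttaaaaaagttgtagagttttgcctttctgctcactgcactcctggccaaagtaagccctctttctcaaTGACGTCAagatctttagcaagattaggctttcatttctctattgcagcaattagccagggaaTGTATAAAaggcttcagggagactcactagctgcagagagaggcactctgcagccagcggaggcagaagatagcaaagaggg

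The full element TGACGTCA occurs in the Dio2 promoter, beginning 95 bases before the start, and in 1.79% of 32851 mouse promoters of the same length. The Ucp1 promoter holds TGACG at 147 bases and AGGTCA at 14 bases before the start, motifs found in 20.8% and 16.3% of promoters. TATANA, found in 24.7% of promoters, has 2 overlapping matches in each, beginning 28 and 26 bases before the start in Ucp1 and 32 and 30 bases in Dio2. In Dio2 both copies of TGACG lie within TGACGTCA. The Prdm16, Otop1 and Zic1 promoters hold none of these letters. The matches describe the sequences only, and binding was not measured.

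The depth recovered from the table was 50.7 to 54.6 M reads per sample (M for mega), and 11557 to 13413 genes per sample reached 1 TPM. The tissue label was borne out by the 10 myofiber markers, which together held 51312 to 65664 TPM in every sample. Markers of adipocytes were also present, as all 10 pan-adipocyte genes averaged at least 1 TPM in each group, none was at 0 in any sample, and their sum ranged from 1039 to 4864 TPM. There were 2 libraries that stood apart. Control + rFibcd1 replicate 2 had 1934 TPM of the liver gene Alb, against at most 171 TPM in the other mice, and LLC replicate 3 had 2.65 TPM of the cartilage gene Col2a1, against at most 0.0749 TPM elsewhere. LLC replicate 3 also had 223 TPM of Acta2 and 61.6 TPM of Myh11, both smooth muscle genes, and 116 TPM of the keratin gene Krt19. In the other mice these were at most 83.1, 22.3 and 32.3 TPM.

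Ucp1, at chr8:83290352-83298452 on the plus strand (GENCODE vM21, GRCm38), ranged from plentiful to absent or nearly absent in mice of the same group, with some mice in between. It reached 16.5 and 62.3 TPM in Control replicates 1 and 2 and 0 in Control replicates 3, 4 and 5. In Control + rFibcd1 it was 127.9 TPM in replicate 1, 1.07 TPM in replicate 4 and 0 in replicates 2, 3 and 5. Thus each tumor-free group held 3 mice with no Ucp1 read beside 1 or 2 mice above 10 TPM. The level in LLC mice was 213.5, 0.0243 and 5.96 TPM in replicates 1, 2 and 3. In LLC + rFibcd1 it was 0.0474, 111.8, 0.920 and 0 TPM in replicates 1 to 4. High Ucp1, above 10 TPM, was therefore seen in 3 of 10 tumor-free and 2 of 7 tumor-bearing mice, and the groups overlapped.

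The reads behind these values were as follows. The 7 mice at 0 had 0 Ucp1 reads, and 3 reads, the limit that a count of 0 allows, would be 0.0720 to 0.0768 TPM there. LLC replicate 2 had 1 read and LLC + rFibcd1 replicate 1 had 2 reads, whereas 678 reads were behind the value of Control replicate 1, 5046 behind that of Control + rFibcd1 replicate 1 and 8710 behind that of LLC replicate 1. Such limits cover counting error only. Group means followed the order LLC (73.1 ± 122 TPM, SD, n = 3), LLC + rFibcd1 (28.2 ± 55.8, n = 4), Control + rFibcd1 (25.8 ± 57.1, n = 5) and Control (15.8 ± 27.0, n = 5), and no neighbors in this order differed by more than their SD.

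Cidea encodes a protein of the lipid droplet surface that promotes droplet growth in brown adipocytes, and lies at chr18:67343604-67367785 on the plus strand. In Control mice it was 34.3, 57.5, 12.6, 11.3 and 12.7 TPM in replicates 1 to 5, and in Control + rFibcd1 it was 57.7, 13.02, 12.9, 13.6 and 11.8 TPM. In LLC it was 222, 10.6 and 18.0 TPM, and in LLC + rFibcd1 13.03, 84.0, 15.7 and 12.1 TPM. The 5 mice with the most Ucp1 were also the 5 with the most Cidea. Unlike Ucp1, Cidea did not drop out in the other mice, where it kept a level above 10 TPM. Its first part overlaps the antisense gene B430212C06Rik (0.346 to 0.917 TPM), and as it is not stated whether counting used strand, reads of this overlap are uncertain.

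Otop1, a proton channel enriched in brown fat, lies at chr5:38275972-38304217 on the plus strand and gave the same picture at lower levels. It measured 1.42, 1.62, 0.170, 0.535 and 0.253 TPM in Control and 1.96, 0.297, 0.163, 0.239 and 0.258 TPM in Control + rFibcd1, by replicate. It measured 8.94, 0.220 and 0.948 TPM in LLC and 0.340, 3.28, 0.564 and 0.307 TPM in LLC + rFibcd1. Its 5 highest mice were the 5 highest for Ucp1, and it was read in every mouse (at least 14 reads).

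Elovl3 encodes an enzyme that elongates very long chain fatty acids and is strongly induced in cold-exposed brown fat (chr19:46131897-46135694, plus strand). In Control it stayed between 0.0839 and 0.670 TPM. In Control + rFibcd1 it was 3.77 and 2.10 TPM in replicates 1 and 2 and at most 0.0812 TPM in the rest. LLC replicate 1 had 6.97 TPM and the other 2 LLC mice 0.107 and 0.166 TPM, and LLC + rFibcd1 replicate 2 had 2.00 TPM against 0.0519 to 0.210 TPM in its group. Thus 3 of the 4 mice above 1 TPM were high for Ucp1 too. The exception, Control + rFibcd1 replicate 2, had no Ucp1 read and was the library with the most liver transcripts, which also held 23.9 TPM of Slc27a2 and 9.08 TPM of Elovl2, another elongase. Alb was also at 171 TPM in Control replicate 4, which had the highest Elovl3 value of Control, 0.670 TPM, and no Ucp1 read. It was at 166 TPM in LLC + rFibcd1 replicate 4, with 0.210 TPM of Elovl3. The part of liver transcripts in these Elovl3 values was not tested.

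Dio2 encodes the deiodinase that converts thyroxine into active thyroid hormone inside the cell (chr12:90724552-90738438, minus strand). It was 2.93, 1.89, 1.27, 0.998 and 0.968 TPM in Control and 4.11, 1.05, 1.03, 1.19 and 1.28 TPM in Control + rFibcd1, by replicate. It was 5.12, 2.37 and 2.38 TPM in LLC and 2.96, 3.47, 2.41 and 2.47 TPM in LLC + rFibcd1. Dio2 was thus at 2.37 TPM or more in all 7 tumor-bearing mice, which put 8 of the 10 tumor-free mice below every tumor-bearing mouse. The exceptions were Control replicate 1 and Control + rFibcd1 replicate 1, both high for Ucp1. Group means were 3.29 ± 1.58 TPM in LLC (SD, n = 3), 2.83 ± 0.492 in LLC + rFibcd1 (n = 4), 1.73 ± 1.33 in Control + rFibcd1 (n = 5) and 1.61 ± 0.825 in Control (n = 5). Dio2 overlaps the lncRNA Gm26512 (0.0272 to 0.184 TPM), and the reads of this overlap are uncertain.

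The 2 transcription factor genes behaved otherwise. Prdm16, which encodes a coregulator that specifies brown over muscle fate (chr4:154316125-154636873, minus strand), was 1.60 to 2.52 TPM in Control, 1.61 to 2.33 in Control + rFibcd1, 1.60 to 2.70 in LLC and 2.07 to 2.51 in LLC + rFibcd1. The mouse with the most Ucp1, LLC replicate 1, had 2.22 TPM of Prdm16, and Control replicate 5 had 2.52 TPM with no Ucp1 read. Zic1, a zinc finger gene that marks classical brown fat (chr9:91358058-91365810, minus strand), averaged 0.204 ± 0.0984 TPM in LLC (SD, n = 3), 0.181 ± 0.0981 in Control + rFibcd1 (n = 5), 0.158 ± 0.0573 in Control (n = 5) and 0.158 ± 0.148 in LLC + rFibcd1 (n = 4). These values rested on 7 to 53 reads per mouse, and the gene overlaps Zic4 on the opposite strand. Of the 5 mice with the most Ucp1, 4 were among the 5 highest for Dio2, 3 for Elovl3, 3 for Zic1 and 1 for Prdm16.

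**Figure D1:**
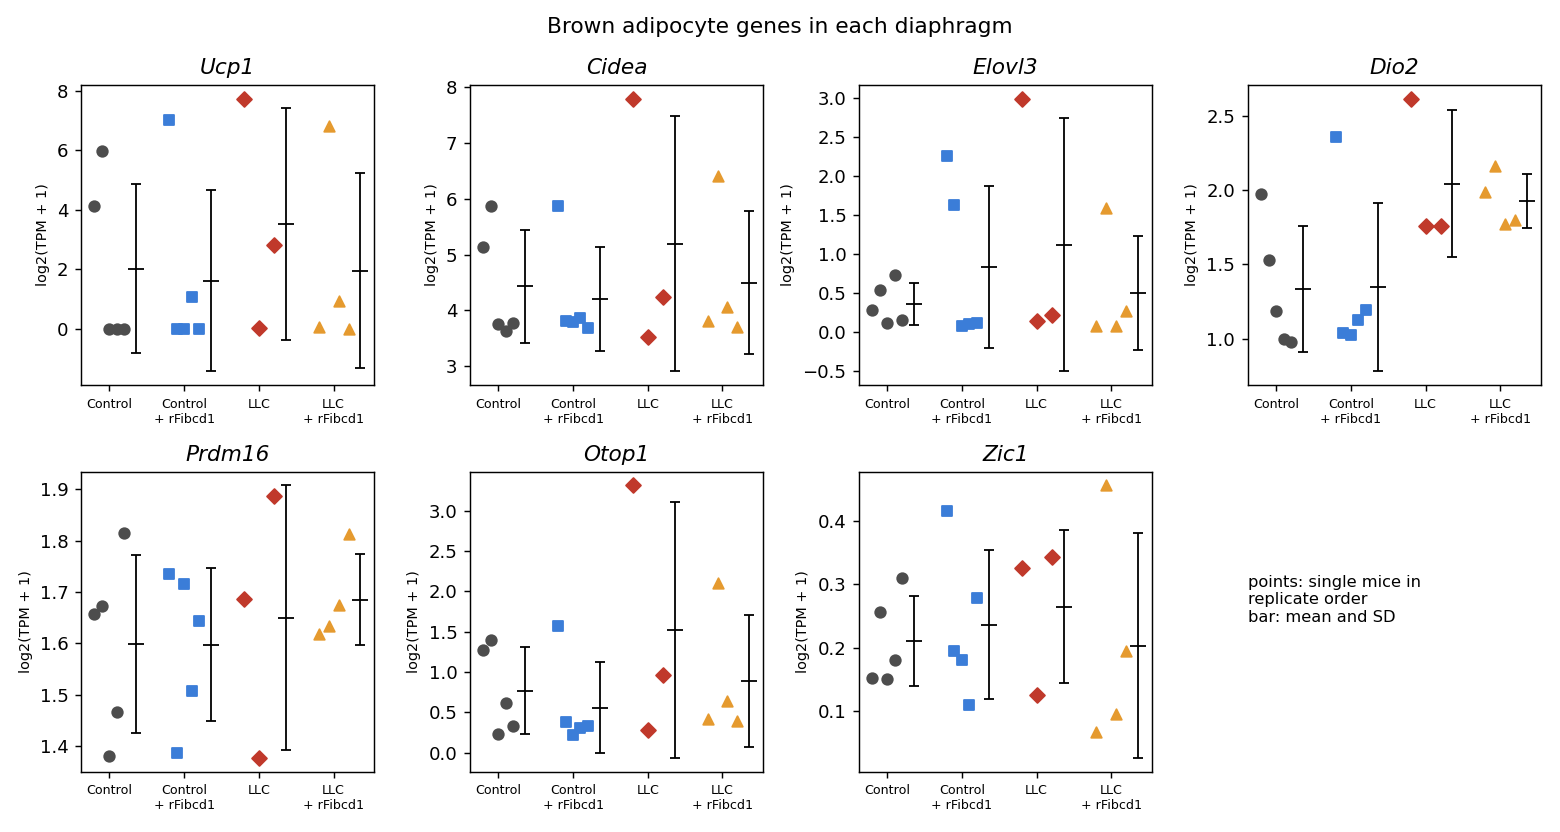
Level of each gene as log2(TPM + 1) (vertical axis, own scale per panel) by group (horizontal axis); points are mice in replicate order and bars show mean and SD. Ucp1, Cidea and Otop1 are high in the same 5 mice, from all 4 groups, whereas all 7 tumor-bearing mice sit at 2.37 TPM or more for Dio2.

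To find out whether tumors or rFibcd1 changed these genes, group differences were tested with limma on log2(TPM + 1), with Benjamini-Hochberg adjustment over 13305 genes. In LLC versus Control, 0 of 6 genes passed an adjusted p of 0.05 (1, Dio2, had an unadjusted p under 0.05), where 35.8% of all genes passed and 29.7% passed as higher. The levels of the groups overlapped for all 7 genes, whereas 40.2% of the genes tested had no overlap. The estimates were 1.503 ± 2.17 for Ucp1 (SE, 95% confidence interval -3.12 to 6.12, adjusted p = 0.604), 0.76 ± 0.90 for Cidea, 0.76 ± 0.64 for Elovl3, 0.71 ± 0.31 for Dio2 (adjusted p = 0.081), 0.05 ± 0.12 for Prdm16 and 0.75 ± 0.58 for Otop1. For Dio2 the exact two-sided permutation test gave p = 0.0714, with 0.0179 the smallest that 56 splits allow. The median difference of all genes was 0.16, and all estimates other than that of Prdm16 lay above it. Of the genes called in this comparison, 3958 of 4759 were higher, which became 1887 of 3922 with median-ratio scaling. Without LLC replicate 1, Ucp1, Cidea, Elovl3 and Otop1 turned to -0.61, -0.54, -0.18 and -0.14, so their positive sign rested on this mouse. Without LLC replicate 3, the library with cartilage and the most smooth muscle transcripts, they were 1.87, 1.23, 1.21 and 1.03.

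In LLC + rFibcd1 versus LLC, 0 of 6 genes passed (0 at an unadjusted p under 0.05), with 0.113% of all genes passing. The groups overlapped for all 7 genes, and 14.6% of the genes tested had no overlap. Ucp1 differed by -1.57 ± 2.27 (SE, adjusted p = 0.656), Cidea by -0.70 ± 0.95, Elovl3 by -0.62 ± 0.67, Dio2 by -0.11 ± 0.32, Prdm16 by 0.04 ± 0.13 and Otop1 by -0.63 ± 0.61. The 95% confidence interval for Ucp1 spanned -6.40 to 3.26, which leaves room for large differences in either direction. Without LLC replicate 1 the Ucp1 difference turned to 0.54.

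In Control + rFibcd1 versus Control, 0 of 6 genes passed (0 at an unadjusted p under 0.05), and 0% of all genes did, with 584 of 13305 at an unadjusted p under 0.05. Again the groups overlapped for all 7 genes, and 0.812% of the genes tested had no overlap. Ucp1 differed by -0.41 ± 1.88 (SE, adjusted p = 0.970), Cidea by -0.23 ± 0.78, Elovl3 by 0.47 ± 0.55, Dio2 by 0.01 ± 0.27, Prdm16 by -0.0011 ± 0.11 and Otop1 by -0.21 ± 0.51. Without Control + rFibcd1 replicate 2, the library with the most liver transcripts, the Elovl3 difference was 0.27. In LLC + rFibcd1 versus Control, 0 of 6 passed against 3.08% of all genes, all 7 genes overlapped where 8.88% of the genes tested did not, and for the interaction of tumor and rFibcd1, 0 of 6 passed against 0% of all genes (1142 at an unadjusted p under 0.05). In LLC + rFibcd1 versus Control, Dio2 differed by 0.59 ± 0.28 (SE, limma adjusted p = 0.257), with an unadjusted limma p of 0.052 and an exact two-sided permutation p of 0.048, where 0.0079 is the smallest that 126 splits allow. In limma, 0 of the 6 genes had an unadjusted p under 0.05 in either comparison. Dunn comparisons after a Kruskal-Wallis test called 0 of 6, and 0 of all 13305 genes, in each pairwise comparison, and 1 gene, Dio2, had an unadjusted Dunn p under 0.05, in LLC + rFibcd1 versus Control.

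In tumor-bearing versus tumor-free mice, 1 of 6 genes passed, as higher, where 44.8% of all genes passed and 38.8% did as higher. The groups overlapped for all 7 genes, against 2.26% of the genes tested with no overlap. Dio2 was higher by 0.64 ± 0.21 (SE, n = 7 against 10, adjusted p = 0.023), and all 7 tumor-bearing mice lay above the median of the tumor-free mice. The exact permutation test over the 19448 ways to divide the mice gave a two-sided p = 0.0079 for Dio2. The other differences were 0.81 ± 1.46 for Ucp1, 0.47 ± 0.61 for Cidea, 0.17 ± 0.43 for Elovl3, 0.07 ± 0.08 for Prdm16 and 0.50 ± 0.39 for Otop1, with adjusted p from 0.313 to 0.769. Zic1, tested alone, gave an exact p = 0.910 here, and exact p of 0.411, 0.600 and 0.690 in LLC versus Control, LLC + rFibcd1 versus LLC and Control + rFibcd1 versus Control. The call for Dio2 was lost without LLC replicate 1 (0.53, limma adjusted p = 0.056) and after quantile normalization (0.40, limma adjusted p = 0.087).

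**Figure D2:**
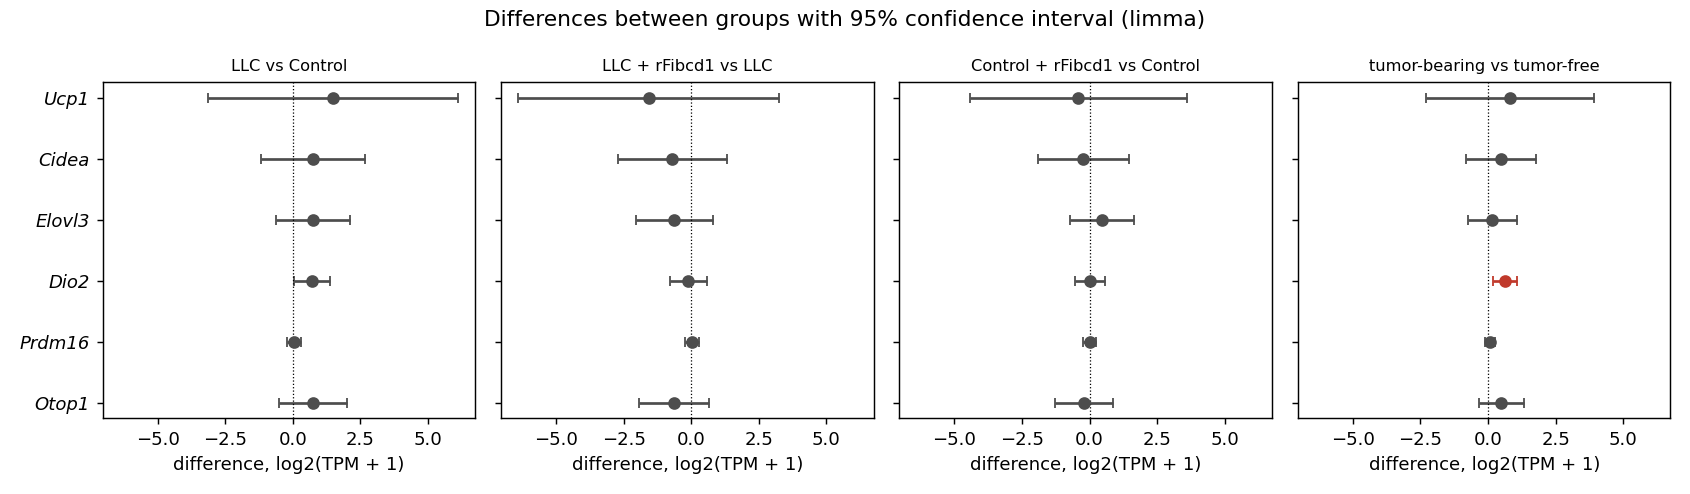
Difference between groups in log2(TPM + 1) (horizontal axis) for the 6 tested genes in 4 comparisons, with 95% confidence interval from limma. The interval of Dio2 in tumor-bearing versus tumor-free mice, in red, excludes 0 and passed the adjusted test, while those of Ucp1 span several log2 units.

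Adipocyte markers were set beside these results. The pan-adipocyte sum was 1081 to 2313 TPM in Control, 1039 to 2476 in Control + rFibcd1, 1528 to 4864 in LLC and 1084 to 2442 in LLC + rFibcd1, and 0 of its 10 genes passed in tumor-bearing versus tumor-free mice (median difference 0.70, against 0.13 over all genes). The mean log2(TPM + 1) of the 10 genes, taken as a score, was then added to the model as a covariate. With it, the tumor difference of Dio2 was 0.23 ± 0.13 (SE, adjusted p = 0.197) and no longer passed, while that of Ucp1 turned to -2.22 ± 0.71 (adjusted p = 0.049), in a fit where 15% of all genes passed. Some tumor-bearing mice had little Ucp1, but several of these had no tumor-free mouse close in adipocyte score. LLC replicate 2 and LLC + rFibcd1 replicates 3 and 1 scored 5.91, 6.15 and 6.23. No tumor-free mouse lay between 5.51 and 6.41, so the fit compared no mice of both kinds there. LLC replicate 3 and LLC + rFibcd1 replicate 2 both scored 6.81, with 5.96 and 111.8 TPM of Ucp1. Adipoq, which encodes the adipocyte hormone adiponectin, was 218, 125 and 119 TPM in LLC replicate 3, LLC + rFibcd1 replicate 1 and LLC + rFibcd1 replicate 3, where Ucp1 was 5.96, 0.0474 and 0.920 TPM. In Control replicates 1 and 2, 175 and 145 TPM of Adipoq came with 16.5 and 62.3 TPM of Ucp1. In Control + rFibcd1 replicate 1 these genes were at 192 and 127.9 TPM. LLC replicate 1 and LLC + rFibcd1 replicate 2, with 436 and 203 TPM of Adipoq, had 213.5 and 111.8 TPM of Ucp1. High Adipoq was thus seen both with and without high Ucp1.

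Markers of immune cells and endothelium were counted too. In tumor-bearing versus tumor-free mice, 5 of 5 B cell, 5 of 5 T cell, 4 of 4 tested neutrophil, 3 of 5 macrophage and 4 of 5 endothelium markers passed as higher, where 38.8% of all genes did, with medians of 1.95, 1.15, 2.30, 0.69 and 0.24 against 0.13 over all genes. The sum of the B cell markers was 2.4 to 91.2 TPM in Control, 3.3 to 131 in Control + rFibcd1, 208 to 261 in LLC and 17.4 to 258 in LLC + rFibcd1. With the mean of these markers as a covariate, the tumor difference of Dio2 was 0.26 (adjusted p = 0.492). The part of the other markers in the Dio2 difference was not tested.

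**Figure D3:**
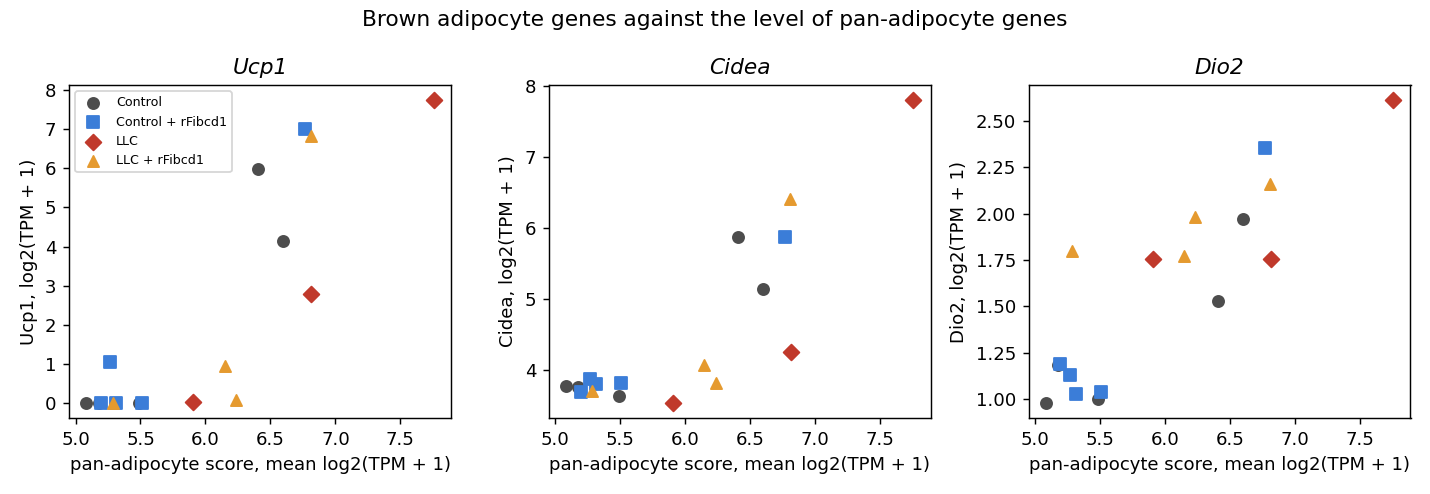
Ucp1, Cidea and Dio2 as log2(TPM + 1) (vertical axes) against the pan-adipocyte score, the mean log2(TPM + 1) of 10 adipocyte genes (horizontal axes), for 17 mice. Dio2 rises along the score, with Pearson's r of 0.88, whereas several tumor-bearing mice with scores between 5.91 and 6.81 have little Ucp1. Another tumor-bearing mouse at 6.81 has 111.8 TPM of Ucp1, and no tumor-free mouse scores between 5.51 and 6.41.

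To see how the genes varied together, correlations over the 17 mice were calculated for 42 relations, comprising the 21 pairs of genes and each gene with the adipocyte, B cell and mesothelium scores. Permutation tests with 100000 resamples were adjusted over the 42. Ucp1 and Cidea had a Pearson's r of 0.96 (p = 1e-05, the smallest the resamples can give, adjusted p = 0.000105) and a Spearman's rho of 0.89 (permutation p = 3e-05, adjusted p = 0.00105). Leaving out the 2 mice farthest from the Ucp1 median gave an r of 0.98, and r was 0.99 within tumor-free and 0.97 within tumor-bearing mice. Among the 12 mice with at most 10 TPM of Ucp1, r was 0.86. Ucp1 and Otop1 gave an r of 0.92 (permutation p = 1e-05, adjusted 0.000105) and a rho of 0.80 (p = 0.00032, adjusted 0.00269), with an r of 0.96 without the 2 farthest mice and 0.79 among the 12 mice with little Ucp1.

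Ucp1 and Dio2 had an r of 0.74 (permutation p = 0.00063, adjusted 0.00265), a rho of 0.75 (p = 0.00081, adjusted 0.00425) and an r of 0.55 without the 2 farthest mice, with 0.90 within tumor-free and 0.84 within tumor-bearing mice. That with Elovl3 had an r of 0.72 (permutation p = 0.00225, adjusted 0.0063) but a rho of 0.42 (p = 0.0949, adjusted 0.154), and r was 0.41 without the 2 farthest mice and -0.17 among the 12 with little Ucp1, so it rested on the mice with the most Ucp1. For Prdm16, r was 0.31 (permutation p = 0.226, adjusted 0.264) and rho 0.22 (p = 0.387, adjusted 0.432), and without the 2 farthest mice r was 0.24. In all, 14 of 21 gene pairs and 28 of 42 relations passed an adjusted p of 0.05 by Pearson's r. Fewer gene pairs and fewer relations passed by Spearman's rho.

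The scores of other cells rose in part with the same mice. Ucp1 had an r of 0.85 with the adipocyte score (permutation p = 2e-05, adjusted 0.00014) and a rho of 0.85 (p = 9e-05, adjusted 0.00126), with an r of 0.77 without the 2 farthest mice. Dio2 had an r of 0.88 with the adipocyte score (permutation p = 2e-05, adjusted 0.00014), a rho of 0.76 (p = 0.00072, adjusted 0.00425) and an r of 0.81 without the 2 farthest mice, with 0.92 within tumor-free and 0.80 within tumor-bearing mice. For Ucp1 and the B cell score r was 0.60 (permutation p = 0.0118, adjusted 0.0199), rho was 0.64 (p = 0.00661, adjusted 0.0186) and r without the 2 farthest mice was 0.50. For Ucp1 and the mesothelium score r was 0.60 (permutation p = 0.0109, adjusted 0.019), rho was 0.48 (p = 0.0556, adjusted 0.101) and r without the 2 farthest mice was 0.50. Of the 5 mice with the most Ucp1, 4 were among the 5 with the most Adipoq, 4 among those with the most Upk3b, a mesothelial gene, and 2 among those with the most Cd79a, a B cell gene. The mesothelium markers summed to 26.8 to 172 TPM in tumor-free and 71.1 to 286 TPM in tumor-bearing mice, and none of the 6 was at 0. Their part in the Ucp1 values was not tested.

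**Figure D4:**
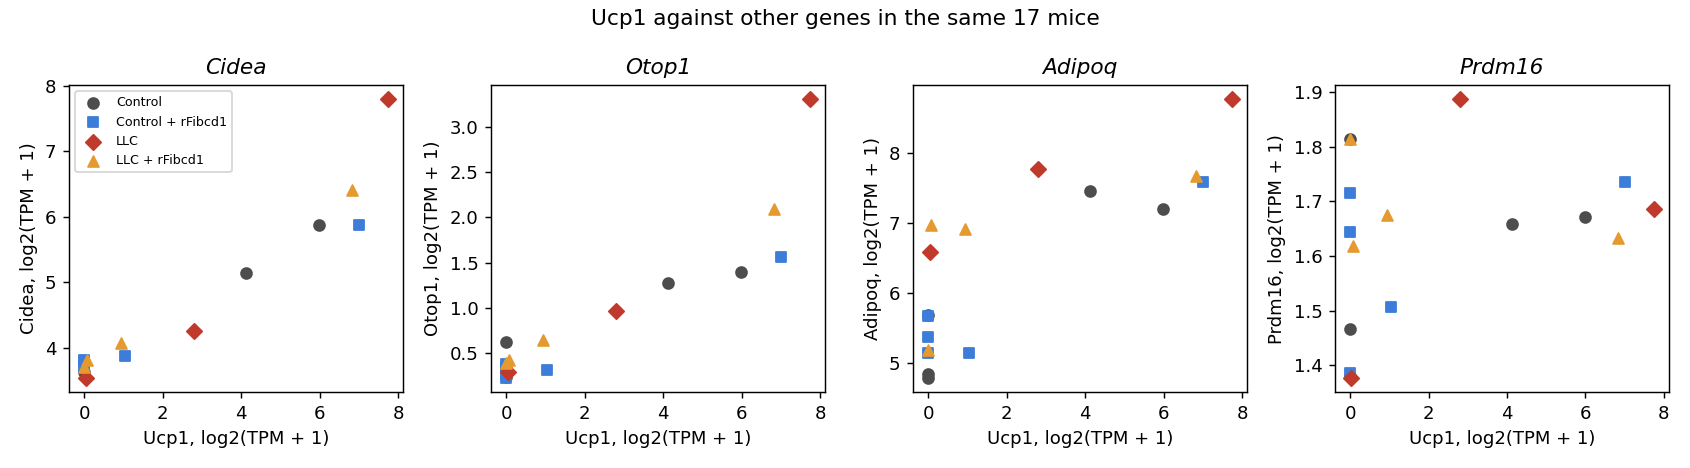
Cidea, Otop1, Adipoq and Prdm16 (vertical axes) against Ucp1 (horizontal axes), all as log2(TPM + 1), in 17 mice marked by group. Cidea and Otop1 follow Ucp1 with Pearson's r of 0.96 and 0.92, Adipoq is also high in mice with little Ucp1, and Prdm16 shows an r of 0.31.

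Most of the variation lay between mice of a group. On the log2(TPM + 1) scale, the SD of Ucp1 within groups was 3.19, rank 5 among 13305 genes, after the urinary protein gene Mup7, the immunoglobulin segment Igkv15-103, Alb and Mup19. The SD was 1.33 for Cidea (rank 209), 0.94 for Elovl3 (rank 406), 0.85 for Otop1 (rank 454), 0.45 for Dio2 (rank 1215) and 0.17 for Prdm16 (rank 5645), where the median gene had 0.15. Groups accounted for 5.27% of the variance of Ucp1, 7.59% for Cidea, 10.4% for Elovl3, 16.0% for Otop1 and 6.05% for Prdm16, against 39.5% for Dio2 and a median of 43.1% over all genes.

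The genes with patterns most like these were then listed by Pearson's r over the 17 mice, as a description. Ucp1 was followed most closely by Cidea (0.96), Kcnk3 (0.94), Otop1 (0.92), Ifi27 (0.92) and Clstn3 (0.91). Kcnk3, a potassium channel of brown adipocytes, ranged from 0.546 to 16.3 TPM and was also the gene closest to the mean of the 6 tested genes (0.98). Rgs7, a regulator of G protein signaling, was closest to Otop1 (0.98). Elovl3 was closest to the glycerol kinase gene Gk (0.92), and Dio2 to Hcar1 (0.92), which encodes the lactate receptor of adipocytes, and to Cfd (0.91), which encodes adipsin. Prdm16 had weaker neighbors, led by Lrrc8a (0.83), a subunit of volume-regulated anion channels.

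Of 13 further genes enriched in brown adipocytes, 11 were tested, and 0 passed in LLC versus Control (35.8% of all genes) and 1 in tumor-bearing versus tumor-free mice (44.8% of all genes), with medians of 0.23 and 0.10 against 0.16 and 0.13 over all genes. Adrb3, the beta-adrenergic receptor of adipocytes, was higher in tumor-bearing mice by 1.20 ± 0.46 (SE, adjusted p = 0.045, 1.23 to 25.1 TPM), but its adjusted p was 0.073 after quantile normalization and 0.070 after median-ratio scaling. Slc36a2, an amino acid transporter of brown fat, differed by 1.29 ± 0.52 (adjusted p = 0.057) and ranged from 2.29 to 69.0 TPM, and Acot11, a thioesterase, by 0.02 ± 0.10 (adjusted p = 0.907). Among the 5 beige adipocyte genes, 2 were tested. The transcription factor gene Shox2 fell by 0.22 ± 0.07 in tumor-bearing mice (adjusted p = 0.018), where 5.98% of all genes passed as lower. Tbx1 differed by 0.17 ± 0.08 (adjusted p = 0.104). Shox2 and Tbx1 did not rise with Ucp1 over the mice, with Pearson's r of -0.52 and -0.38, so their levels need not come from adipocytes. Shox2 and Tbx1 averaged 18.0 and 75.4 TPM, whereas Tmem26, Tnfrsf9 and Cited1 were at most 0.484, 0.841 and 0.777 TPM.

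Thermogenic genes that muscle shares with brown fat were also counted. Of 12 such genes, 6 fell and 0 rose in LLC versus Control, where 6.02% of all genes passed as lower, with a median of -0.31. Calls as lower over all genes went from 801 to 3175 with quantile normalization, but to 9 without LLC replicate 3 and to 2 with the replicate number as a block, so at most that many of any list pass there. Cox7a1, a subunit of cytochrome oxidase, fell by 0.38 (adjusted p = 0.005), Ckmt2, the mitochondrial creatine kinase of striated muscle, by 0.32 (adjusted p = 0.010), and Esrra, a nuclear receptor of oxidative metabolism, by 0.22 (adjusted p = 0.017). These genes averaged 1419, 3665 and 131 TPM over the 17 mice, and their direction held under 3 other scalings. Fabp3, a fatty acid binding protein of muscle, also fell, by 0.30 (adjusted p = 0.033), and Cox8b, another oxidase subunit, differed by -0.17 ± 0.06 (adjusted p = 0.051). In tumor-bearing versus tumor-free mice, 4 of the 12 fell and 0 rose, where 5.98% of all genes passed as lower. Of the 10 myofiber markers, 4 fell in LLC versus Control, namely Ckm by 0.27, Tnnt3 by 0.29, Mb by 0.30 and Myh1 by 0.64, and 6 fell in tumor-bearing versus tumor-free mice. Their part in the fall of the shared genes was not tested.

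Of the genes of general adipocyte function, 0 of 10 pan-adipocyte, 1 of 5 white-associated and 0 of 8 lipogenic genes passed in tumor-bearing versus tumor-free mice, where 44.8% of all genes did. Their medians were 0.70, 0.50 and 0.60, against 0.13 over all genes. The called gene was Cfd, higher by 1.47 ± 0.53 (adjusted p = 0.036) with levels from 249 to 4167 TPM, and its adjusted p was 0.053 after median-ratio scaling. Fabp4, a fatty acid binding protein, differed by 0.65 ± 0.29 (adjusted p = 0.082), Pnpla2, the first lipase of lipolysis, by 0.27 ± 0.12 (adjusted p = 0.080) and the lipid droplet gene Plin4 by -0.05 ± 0.09 (adjusted p = 0.663). Retn, which encodes resistin, differed by 1.00 ± 0.49 (adjusted p = 0.103) and Nnat by 0.50 ± 0.63 (adjusted p = 0.533). Thrsp, a lipogenic factor, differed by 0.64 ± 0.45 (adjusted p = 0.255), Acacb, a muscle form of acetyl-CoA carboxylase, by -0.07 ± 0.06 (adjusted p = 0.359) and Scd1, the stearoyl-CoA desaturase, by 0.51 ± 0.52 (adjusted p = 0.435). Among genes of thyroid hormone handling, Klf9, a thyroid hormone target, fell by 0.30 in tumor-bearing mice (adjusted p = 0.035). The receptor gene Thra differed by 0.10 ± 0.07 (adjusted p = 0.219) and the corepressor gene Hr by -0.27 ± 0.11 (adjusted p = 0.057). The other deiodinase genes, Dio1 and Dio3, were below the filter, and the highest Dio1 value, 9.76 TPM, was that of the library with the most liver transcripts.

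Other members of these gene families were also examined. Ucp2, an uncoupling protein gene active in immune cells, was 1.00 ± 0.19 higher in tumor-bearing mice (adjusted p = 0.002), and Ucp3, the uncoupling protein of muscle, fell by 0.49 ± 0.18 (adjusted p = 0.036). Both kept these directions under 3 other scalings. Elovl1 and Elovl5, relatives of Elovl3, were each 0.55 higher in tumor-bearing mice (adjusted p = 0.003 and 0.009). Elovl6 differed by 0.57 ± 0.43 (adjusted p = 0.293). Cidec, a relative of Cidea found in white fat, differed by 1.21 ± 0.53 (adjusted p = 0.073), Cideb by -0.07 ± 0.48 (adjusted p = 0.921), and Mecom, the closest relative of Prdm16, by -0.01 ± 0.07 (adjusted p = 0.947). The relatives Otop2 and Otop3, and Zic2, Zic4 and Zic5, were below the filter.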

How the data were processed

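RNA was sequenced from 17 diaphragms. The authors trimmed and aligned reads to the mouse genome (mm10, GRCm38) in CLC Genomics Workbench and deposited TPM per gene symbol. The annotation release and strand setting are not given in the sources used here. TPM was matched by symbol to GENCODE vM21 (94.6% of symbols), and depth was recovered from low values, of which 81.2% to 83.9% per sample fell within 0.02 of a whole read (4% by chance). No count test was run. Groups came from sample titles.

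Genes reaching 1 TPM in 3 or more samples entered a test with limma 3.58.1 (R 4.3.3) on log2(TPM + 1), in 1 model with 4 group means, 13 residual degrees of freedom, trended empirical Bayes and two-sided tests at an adjusted p of 0.05. This scale understates fold changes of low genes. Permutation tests were run in Python 3.11.15 with numpy 2.4.6, and scipy 1.17.1 gave ranks and the adjustment over the 42 relations. Alternatives were another pseudocount, filters, scalings, covariates, a replicate block, Dunn comparisons and leaving out each mouse. All 7 members were named, with from each list the 3 genes highest in TPM and called genes (of over 3, the 3 with the smallest adjusted p). Neighbors in pattern were the 5 genes with the highest Pearson's r per member. Adipoq, Upk3b, Cd79a, Acta2, Myh11, Krt19, the genes below the filter and the liver and cartilage genes were named after their values were seen. The members and lists were chosen with earlier results of these data known. The labels call the samples biological replicates and give no batch. Some listed genes are not reported here.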

Additional observations from a re-analysis of the deposited data

Results flagged for a closer look

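A mouse far from the others of its group was looked for in the 3 groups with 4 or more mice, for 7 genes, on the log2(TPM + 1) scale. Of 21 such sets, 8 held a mouse whose gap to its neighbor was large for the range, where chance marks about 1 in 20. All 8 were the highest mouse, and they came from Control + rFibcd1 replicate 1 or LLC + rFibcd1 replicate 2. In Control + rFibcd1 replicate 1 these were Ucp1 at 127.9 TPM, Cidea at 57.7 TPM, Dio2 at 4.11 TPM and Otop1 at 1.96 TPM. In LLC + rFibcd1 replicate 2 they were Ucp1 at 111.8 TPM, Cidea at 84.0 TPM, Elovl3 at 2.00 TPM and Otop1 at 3.28 TPM. The genes share their mice, so these are not 8 independent observations. Control, with 2 mice high for Ucp1, had no such mouse, and LLC, with 3 mice, was too small to be examined.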

How the results depend on the processing

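Differences are in log2(TPM + 1). With the pan-adipocyte score as a covariate, Ucp1 turned to -2.89 in LLC versus Control, 1.32 in LLC + rFibcd1 versus LLC, 0.16 in Control + rFibcd1 versus Control and -2.22 in tumor-bearing versus tumor-free mice. Cidea turned to -1.003, 0.46, 0.0026 and -0.74 in the same order. In LLC versus Control, LLC + rFibcd1 versus LLC and tumor-bearing versus tumor-free mice, Elovl3 turned to -0.23, 0.030 and -0.51, and Otop1 to -0.37, 0.11 and -0.28. Dio2 turned to 0.27 in LLC + rFibcd1 versus LLC, and Prdm16 to -0.014 in LLC versus Control and 0.0075 in Control + rFibcd1 versus Control. The tumor count stayed at 1, but the called gene was Ucp1 in place of Dio2.

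With a covariate for B cells, their marker score, Ucp1 turned to -2.53 in LLC versus Control, 1.13 in LLC + rFibcd1 versus LLC, 0.26 in Control + rFibcd1 versus Control and -2.02 in tumor-bearing versus tumor-free mice. Cidea turned to -0.59, 0.21 and -0.47 in the first, second and last of these. Otop1 turned to -0.10 in LLC versus Control and -0.10 in tumor-bearing versus tumor-free mice, Elovl3 to -0.32 in the latter, Dio2 to 0.25 in LLC + rFibcd1 versus LLC and Prdm16 to 0.0011 in Control + rFibcd1 versus Control. The tumor count became 0, as it did after quantile normalization (Dio2 0.40, adjusted p = 0.087) and with a filter of 5 TPM in 3 samples, which removed Dio2, Elovl3, Prdm16 and Otop1 from the test. Without trend and with array weights, the count in LLC versus Control became 1 (Dio2, 0.80, adjusted p = 0.021), Dio2 turned to -0.12 in Control + rFibcd1 versus Control and Prdm16 to 0.018. Quantile normalization turned Dio2 to 0.12 in LLC + rFibcd1 versus LLC.

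Prdm16 was near 0 and turned with scaling. In Control + rFibcd1 versus Control it was 0.054 with median-ratio scaling, 0.081 with quantile normalization and 0.014 when rescaled without mitochondrially encoded genes, and in LLC versus Control -0.090, -0.27 and -0.028. In tumor-bearing versus tumor-free mice it was -0.040 and -0.16 with the former 2. The causes were not tested.

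Leaving out each mouse gave 0 to 1 called genes in LLC versus Control (1, Dio2, without Control replicate 1 or Control + rFibcd1 replicate 1) and 0 to 1 in tumor-bearing versus tumor-free mice (0 without LLC replicate 1). In LLC versus Control, genes whose direction turned ranged from -0.61 to 3.25 for Ucp1, -0.54 to 1.59 for Cidea, -0.18 to 1.24 for Elovl3, -0.067 to 0.19 for Prdm16 and -0.14 to 1.37 for Otop1. In LLC + rFibcd1 versus LLC, genes whose direction turned ranged from -3.31 to 0.54 for Ucp1, -1.53 to 0.61 for Cidea, -1.11 to 0.32 for Elovl3, -0.26 to 0.17 for Dio2, -0.10 to 0.15 for Prdm16 and -1.25 to 0.26 for Otop1. In Control + rFibcd1 versus Control, genes whose direction turned ranged from -1.76 to 0.58 for Ucp1, -0.64 to 0.13 for Cidea, -0.24 to 0.17 for Dio2 and -0.055 to 0.053 for Prdm16. In tumor-bearing versus tumor-free mice, genes whose direction turned ranged from -0.041 to 1.39 for Ucp1, -0.026 to 0.69 for Cidea and -0.20 to 0.35 for Elovl3.

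The replicate numbers did not pair the mice, since residuals of the 22 same-numbered pairs correlated at -0.46 to 0.49 and 4 exceeded 0.1. With the replicate block, Dio2 was 0.53 higher in tumor-bearing mice (adjusted p = 0.024), and no call among the 6 genes changed. Over all genes, the calls in LLC versus Control went from 4759 to 5 with the block, 58 with the adipocyte covariate, 9 with the B cell covariate, 2254 without LLC replicate 1 and 24 without LLC replicate 3, and in tumor-bearing versus tumor-free mice from 5963 to 3782, 1997, 677, 4590 and 4140. Apart from leaving out mice, 216 of 260 values kept their direction and side of the threshold. A fit of only the groups compared, and Dunn comparisons, were not run for the tumor and interaction comparisons. For Ucp1, whose SE was 2.17 in LLC versus Control, only large differences were detectable, whereas that of Prdm16 was 0.12.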
